A study of Mus musculus with 18 samples.

Results

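The 33 genes of the mouse Mediator complex were followed in nascent RNA from wild-type (WT) and *Tet2*-knockout (KO) mouse embryonic stem (mES) cells. They are the genes in the deposited counts whose Ensembl identifiers map in GENCODE M21 to *Med1*, *Med4*, *Med6* to *Med31*, the paralogs *Med12l* and *Med13l*, and *Cdk8*, *Cdk19* and *Ccnc*, so 33 of the 54446 genes counted. Cells of either genotype were given 1 mM 5-ethynyl uridine (EU), a uridine analogue that enters new RNA, for 10, 20 or 40 min, and RNA carrying EU was biotinylated by click chemistry, pulled down with streptavidin and made into libraries. There were 3 libraries for each genotype at each labelling time, thus 6 groups and 18 libraries. The WT and the *Tet2*-/- cells were each a single line, grown in serum medium that held LIF and the inhibitors CHIR99021 and PD0325901 in both genotypes, and moved onto gelatin to remove feeder cells. The 3 libraries of a group come from dishes seeded in parallel, so p-values below measure the spread between dishes of 1 line and not between knockout clones.

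Mediator is the large coactivator that carries signals from transcription factors bound at enhancers to RNA polymerase II at the promoter. Its core has a head and a middle module that contact the polymerase, a tail that many activators bind, the backbone subunit Med14 that joins them, and Med27 to Med30 where head and tail meet. A separable kinase module of Cdk8 or Cdk19 with cyclin C, Med12 or Med12l, and Med13 or Med13l docks onto the core and keeps the polymerase from binding it. In embryonic stem cells Mediator is known for its occupancy of enhancers of pluripotency genes, together with cohesin and its loader Nipbl.

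The libraries held between 17931614 and 23069143 reads on genes and between 44162 and 512186 reads on the ERCC spike-in RNAs. A gene's level is given on 2 scales. The first is reads per 1000 ERCC reads, which follows the amount of captured RNA relative to the total RNA of a sample. The second is RPM, a gene's reads scaled to 1000000 gene reads per library, a share of the captured RNA that takes no account of its amount. The amount of spike-in followed the total RNA of a sample, so more captured RNA and less total RNA cannot be told apart on the first scale. In these bulk samples fewer cells and less RNA per cell cannot be told apart either. *Tet2* itself had 13117 to 17092 reads in WT and 9730 to 13011 in *Tet2*-KO libraries. Its share was lower in *Tet2*-KO, with a log2 fold change of -0.20 (SE 0.011, adjusted p = 1.42e-16). Per ERCC read it was higher in *Tet2*-KO, as most genes were, by 0.54 (SE 0.049, adjusted p = 2.42e-24). A count over the whole gene does not test for a deleted exon, so the genotypes are those of the labels. The 8 markers of embryonic stem cells summed to between 2872 and 3053 RPM in WT and between 2093 and 2210.1 in *Tet2*-KO, *Sox2* being listed at 0 reads in every library. As a share, of the 7 markers tested 1 was higher (*Pou5f1*, 0.16) and 6 were lower (*Zfp42*, -2.25, at the extreme), and per ERCC read 5 were higher and 1 lower (median 0.474). Over all genes tested 24.6% were higher and 32.0% lower as a share, and 80.5% and 4.15% per ERCC read. The 7 feeder fibroblast markers summed to between 2.75 and 15.7 RPM, and the genotype with more of them changed with time. At 10 min they held 15.6 to 15.7 RPM in WT and 5.49 to 6.77 in *Tet2*-KO, at 20 min 2.75 to 3.41 and 11.1 to 12.6, and at 40 min 3.64 to 4.55 and 5.14 to 6.47, with *Lum* at 0 in all WT libraries and at no more than 1 read in *Tet2*-KO. The 5 primitive endoderm markers summed to between 3.76 and 8.36. The part that these differences play in the Mediator values was not tested.

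Promoters are printed for 4 of the 6 members whose shares did not overlap between genotypes at any labelling time: *Med12l*, *Med13l* and *Med21*, higher in *Tet2*-KO, and *Med28*, lower. Of the other pair, *Med8* had no entry and *Med31* rests on the fewest reads. Over all genes tested, 11.8% lay higher and 13.9% lower in *Tet2*-KO without such overlap. Each is the RefSeq window from 250 bases before to 50 bases after a RefSeq transcription start (GRCm38.p6, 5′ to 3′ on the gene's own strand, which is the plus strand for all of them), and capitals mark CpG dinucleotides, the sites of DNA methylation in mammals. For *Med12l* that start lies inside the GENCODE gene span given below, downstream of its first base. The windows lie at chr3:59006728-59007027, chr5:118560469-118560768, chr6:146642329-146642628 and chr5:45519979-45520278.
Med12l: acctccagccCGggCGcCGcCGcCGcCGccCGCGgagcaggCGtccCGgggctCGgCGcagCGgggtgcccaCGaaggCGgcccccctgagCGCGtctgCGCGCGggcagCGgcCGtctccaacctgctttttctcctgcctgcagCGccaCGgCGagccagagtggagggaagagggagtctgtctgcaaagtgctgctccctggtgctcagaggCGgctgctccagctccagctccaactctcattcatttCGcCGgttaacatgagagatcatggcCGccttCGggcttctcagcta
Med13l: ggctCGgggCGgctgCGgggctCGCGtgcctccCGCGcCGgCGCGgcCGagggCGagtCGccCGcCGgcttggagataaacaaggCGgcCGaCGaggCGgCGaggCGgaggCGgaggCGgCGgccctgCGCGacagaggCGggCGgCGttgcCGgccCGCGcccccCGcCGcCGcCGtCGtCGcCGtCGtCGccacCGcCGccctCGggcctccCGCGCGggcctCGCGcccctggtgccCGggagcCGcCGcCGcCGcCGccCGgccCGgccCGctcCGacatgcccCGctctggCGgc
Med21: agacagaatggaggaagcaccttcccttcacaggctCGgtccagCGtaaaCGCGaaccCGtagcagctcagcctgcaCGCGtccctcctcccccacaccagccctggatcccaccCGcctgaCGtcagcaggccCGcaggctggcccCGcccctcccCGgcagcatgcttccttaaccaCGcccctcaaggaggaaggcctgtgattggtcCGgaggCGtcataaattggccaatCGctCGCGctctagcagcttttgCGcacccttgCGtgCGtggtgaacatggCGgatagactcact
Med28: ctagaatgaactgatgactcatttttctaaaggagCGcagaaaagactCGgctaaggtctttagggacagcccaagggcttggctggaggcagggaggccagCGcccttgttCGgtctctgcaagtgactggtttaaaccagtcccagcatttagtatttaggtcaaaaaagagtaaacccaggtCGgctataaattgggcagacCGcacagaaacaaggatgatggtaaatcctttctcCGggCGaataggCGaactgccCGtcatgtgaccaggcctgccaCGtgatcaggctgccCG
They hold 30, 61, 22 and 12 CpG sites in this order. A RefSeq window was at hand for 28 of the 33 members, with 32 windows in all, whose median was 20 CpG sites (3 to 61) against 7 over all 32851 promoter windows of the genome. As many sites as in *Med13l* stood in 0.0609% of all windows. *Med8*, *Med23*, *Med24*, *Med30* and *Cdk19* had no entry.

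Per ERCC read, all 32 members that could be tested were higher in *Tet2*-KO, and none was lower. *Med12l* rose most, 3.08-fold, and *Med8* least, 1.25-fold, on the mean of the 3 labelling times. Summed over the 33 members, the level after 10, 20 and 40 min of EU was 119 ± 10.2, 383 ± 24.0 and 647 ± 21.3 reads per 1000 ERCC reads in WT (SD, n = 3). In *Tet2*-KO it was 264 ± 15.5, 568 ± 36.9 and 1078 ± 91.1, which is 2.22, 1.48 and 1.67 times WT. The members did this with the rest of the genome: 80.5% of the 19910 genes tested were higher and 4.15% lower by the same test (edgeR's quasi-likelihood test on ERCC-scaled counts, Benjamini-Hochberg adjusted). The median log2 fold change was 0.74 for the members and 0.70 for all genes tested. By labelling time the members' medians were 1.02, 0.51 and 0.63, and those of all genes 0.96, 0.45 and 0.67. For 27 of the 32 members every *Tet2*-KO library lay above every WT library at each labelling time, which held for 51.6% of all genes tested, and for 0 members below (1.56% of all genes). The 5 whose libraries overlapped at 1 time or more were *Med8*, *Med11*, *Med16*, *Med28* and *Med30*.

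**Figure D1:**
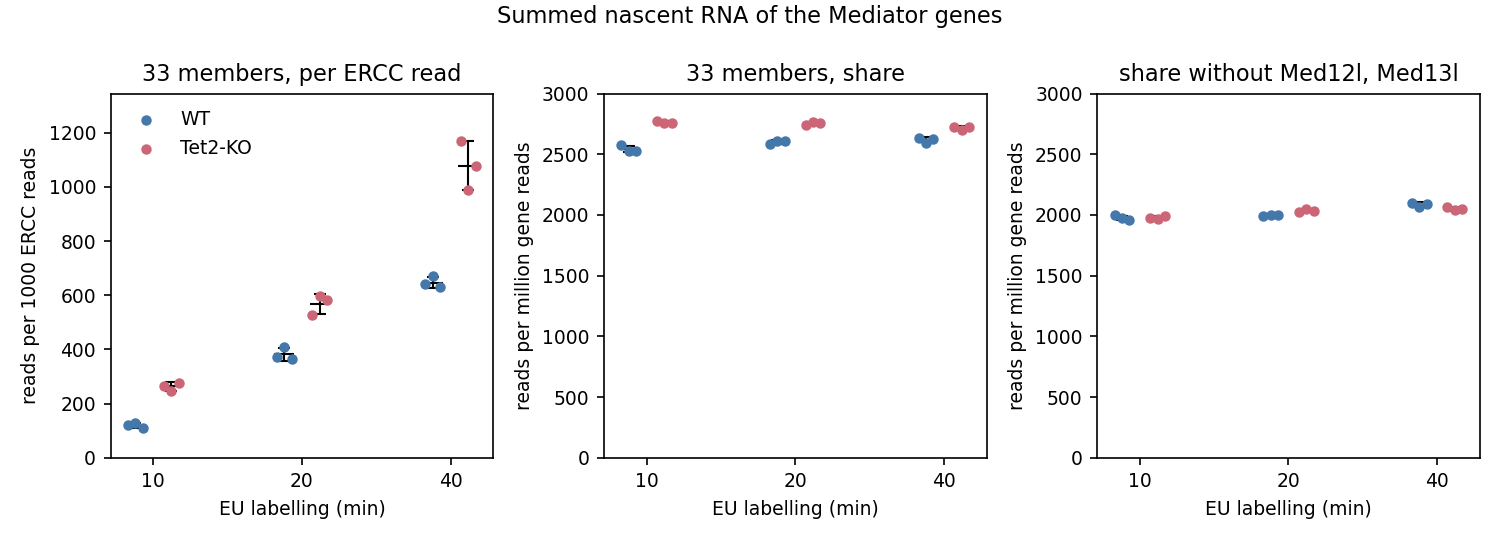
Reads summed over the 33 Mediator genes against minutes of EU labelling, as reads per 1000 ERCC reads (left), in RPM (middle) and in RPM without *Med12l* and *Med13l* (right). Points are libraries, and bars are the mean and SD of 3 libraries. Per ERCC read *Tet2*-KO lies 1.48 to 2.22 times above WT, the share differs by 1.04 to 1.09 times, and without the pair it differs by 0.984 to 1.02 times.

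As a share of the captured RNA, the Mediator genes took 0.253% to 0.264% of gene reads in WT libraries and 0.270% to 0.277% in *Tet2*-KO libraries, and the ranges did not overlap. After 10, 20 and 40 min of EU the sum was 2545 ± 25.6, 2599 ± 15.0 and 2619.5 ± 22.9 RPM in WT (SD, n = 3), and 2763 ± 8.45, 2755 ± 9.95 and 2713.5 ± 14.9 in *Tet2*-KO. *Med12l* and *Med13l* held 20.4% to 23.1% of the members' reads in WT. Without them the ratio of *Tet2*-KO to WT went from 1.09, 1.06 and 1.04 at the 3 times to 1.00, 1.02 and 0.984. For the pair alone it was 1.38, 1.20 and 1.24.

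Gene by gene, 9 of the 32 members tested had a higher share in *Tet2*-KO, 11 a lower share, and 12 did not pass the test (edgeR's quasi-likelihood test, mean of the 3 labelling times). Over all genes tested 24.6% were higher and 32.0% lower, so the members' counts lie near those of the genome. Their median log2 fold change was 0.00115 against -0.037 for all genes. All adjusted p-values given here are from this edgeR test with Benjamini-Hochberg adjustment over all genes tested. TMM normalization, which centres all genes near 0, turned the split of 9 higher and 11 lower into 14 and 4, where 28.6% of all genes were higher and 27.9% lower. DESeq2 gave 13 and 4, against 27.5% and 27.8% of all genes. *Med8*, *Med28*, *Med6* and *Med1* were the 4 members called lower in all of these fits. The 12 members without a call had log2 fold changes from -0.17 (*Med22*) to 0.098 (*Med12*).

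**Figure D2:**
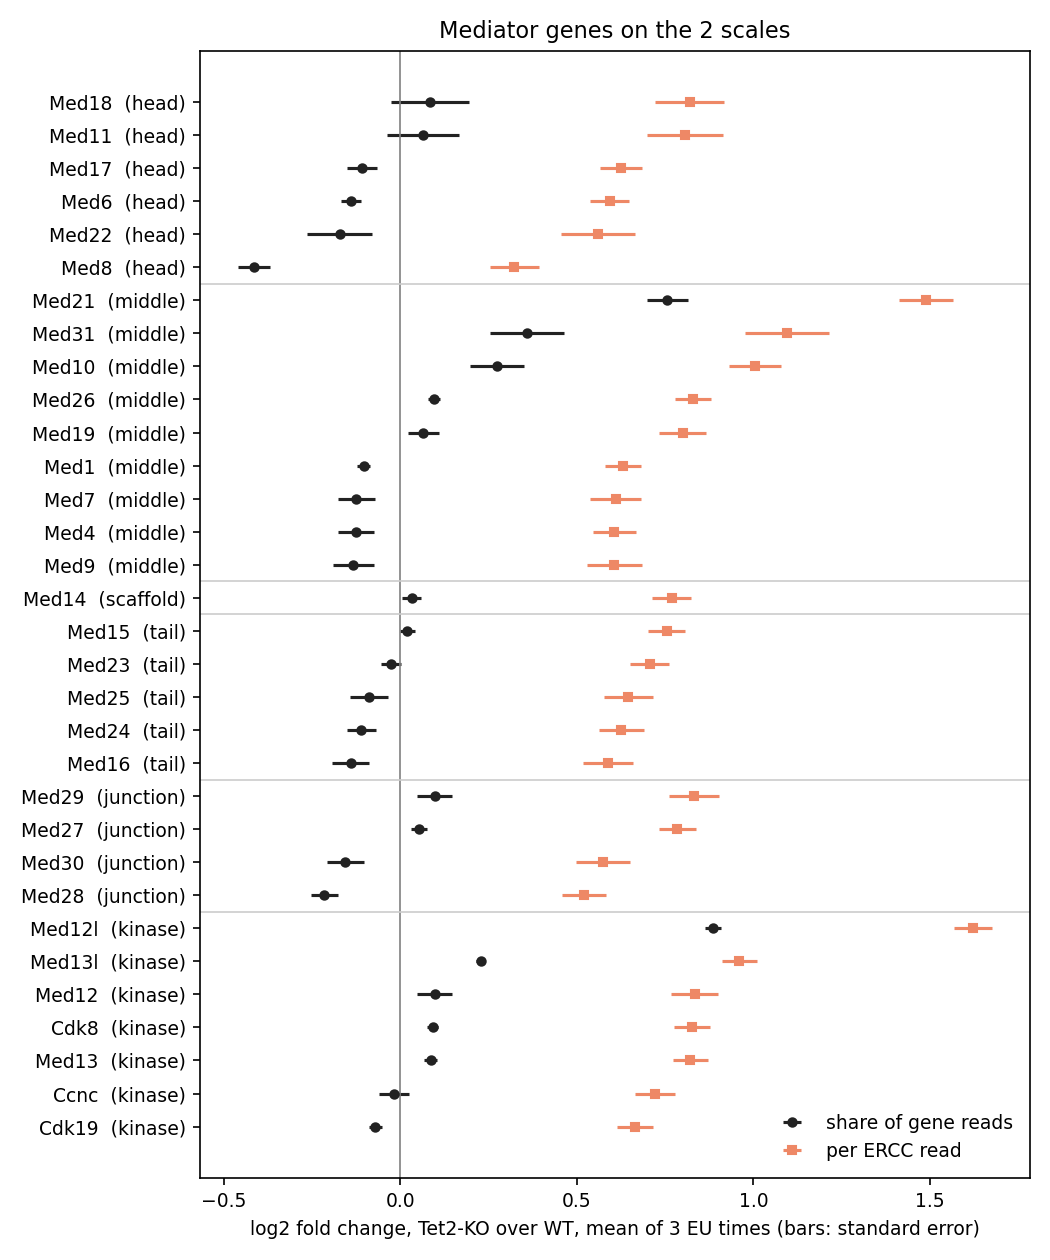
Log2 fold change, *Tet2*-KO over WT, of the 32 tested Mediator genes, grouped by module, as a share of gene reads (circles) and per ERCC read (squares), with bars for the standard error over 18 libraries. All squares lie right of 0, from 0.32 for *Med8* to 1.62 for *Med12l*, while the circles fall on both sides, from -0.41 to 0.89 for the same genes.

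In the kinase module, 4 of 7 genes had a higher share in *Tet2*-KO (*Med12l*, *Med13l*, *Cdk8* and *Med13*), *Cdk19* had a lower share, and *Med12* and *Ccnc* did not pass. Over all genes tested 24.6% had a higher share and 32.0% a lower one. The module held more reads than any other, with 1349 to 1368 RPM on average in WT and 1476 to 1607 in *Tet2*-KO. *Med12l*, a paralog of the kinase activator Med12, lies on chromosome 3, from 59005825 to 59318682 (mm10, plus strand). It had 82.2, 78.4 and 86 (10 min), 89.9, 90.5 and 90.2 (20 min) and 80.8, 76 and 76.8 (40 min) RPM in WT libraries. In *Tet2*-KO libraries it had 165, 176 and 161 (10 min), 151, 154 and 157 (20 min) and 144, 137 and 144 (40 min). Every *Tet2*-KO library was above every WT library, by a log2 fold change of 0.89 (SE 0.023, adjusted p = 2.53e-26). Per 1000 ERCC reads *Med12l* had 3.82, 3.99 and 3.68 (10 min), 13, 14.2 and 12.6 (20 min) and 19.6, 19.6 and 18.4 (40 min) in WT, and 15.9, 15.7 and 16.2 (10 min), 28.8, 33.1 and 33.1 (20 min) and 62, 50.3 and 57.2 (40 min) in *Tet2*-KO, again without overlap.

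*Med13l* and *Med13* encode the subunits that tether the kinases to the core. *Med13l*, on chromosome 5, from 118560679 to 118765438, was the member with the most reads, 9234 to 14180 per library. Its share was 497, 479 and 484 (10 min), 497, 522 and 513 (20 min) and 456, 452 and 462 (40 min) RPM in WT. It was 631, 618 and 607 (10 min), 566, 564 and 567 (20 min) and 513, 522 and 526 (40 min) in *Tet2*-KO. The groups did not overlap at any time, and the log2 fold change was 0.23 (SE 0.013, adjusted p = 1.2e-16). *Med13* had 239.8, 234 and 258 (10 min), 246, 245 and 254 (20 min) and 286, 289 and 287 (40 min) in WT and 265, 266 and 273 (10 min), 270.1, 269.9 and 271 (20 min) and 284, 278 and 298 (40 min) in *Tet2*-KO. Its libraries were apart at 10 and 20 min and overlapped at 40 min, with a mean log2 fold change of 0.086 (SE 0.017, adjusted p = 7.23e-05). For *Med12*, the subunit that activates the kinase, the libraries overlapped at 10 and 40 min and the change was not past the threshold (0.098, SE 0.050, adjusted p = 0.0961), though it was with TMM (0.14, adjusted p = 0.0179 from edgeR) and without WT 10 min replicate 1 or *Tet2*-KO 10 min replicate 3 (0.12 in both).

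The 2 kinases moved in opposite directions as a share. *Cdk8* had 190.2, 191 and 188 (10 min), 186, 189 and 194 (20 min) and 228, 226 and 226 (40 min) RPM in WT and 206, 193 and 192 (10 min), 223, 213 and 218 (20 min) and 233, 226 and 230.2 (40 min) in *Tet2*-KO, a log2 fold change of 0.092 (SE 0.017, adjusted p = 2.02e-05). The groups were apart at every time but 40 min, where they overlapped. *Cdk19* had 281, 276 and 268 (10 min), 231, 237 and 242 (20 min) and 219, 216 and 209 (40 min) in WT and 262, 268 and 272 (10 min), 217, 224 and 210.3 (20 min) and 217, 202 and 206 (40 min) in *Tet2*-KO, apart at 20 min only, with a change of -0.070 (SE 0.018, adjusted p = 0.00108) that TMM did not keep past the threshold (-0.030, adjusted p = 0.161 from edgeR). Per ERCC read *Cdk19* was higher in *Tet2*-KO, by 0.66 (SE 0.051, adjusted p = 1.3e-32). *Ccnc*, the cyclin of both kinases, did not pass as a share (-0.018, SE 0.042, adjusted p = 0.743) and was higher per ERCC read (0.72, SE 0.057, adjusted p = 7.05e-31), as were *Cdk8* (0.82), *Med12* (0.83), *Med13* (0.82), *Med13l* (0.96) and *Med12l* (1.62).

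The balance between paralogs, a ratio of reads within each library that needs no scaling between libraries, differed with genotype for *Med12l* over *Med12*. It was 2.61 to 3.63 in the 9 WT libraries and 4.79 to 6.65 in the 9 *Tet2*-KO libraries. *Med13l* over *Med13* was 2.0 ± 0.105, 2.06 ± 0.062 and 1.59 ± 0.024 after 10, 20 and 40 min in WT (SD, n = 3), and 2.31 ± 0.079, 2.09 ± 0.0019 and 1.82 ± 0.056 in *Tet2*-KO, with overlap at 20 min. *Cdk19* over *Cdk8* moved with labelling time in both genotypes, from 1.45 ± 0.027 through 1.25 ± 0.0096 to 0.946 ± 0.019 in WT and from 1.36 ± 0.078 through 0.996 ± 0.048 to 0.906 ± 0.021 in *Tet2*-KO. The genes of a pair differ in length, so such a ratio compares groups and is not the ratio of their transcripts.

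**Figure D3:**
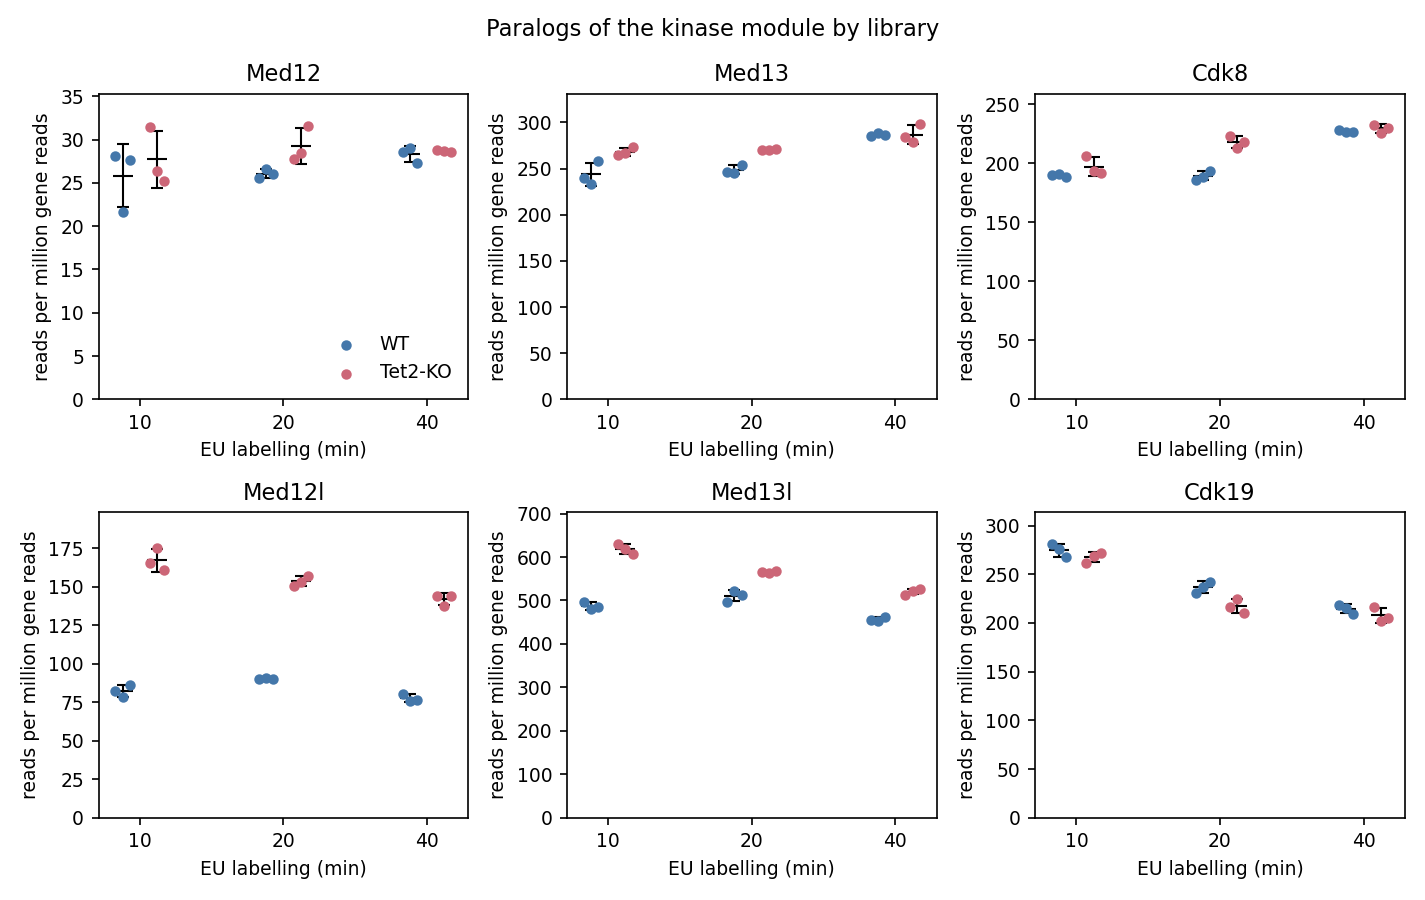
Level in RPM of the 3 paralog pairs of the kinase module against minutes of EU labelling. Points are libraries, and bars are the mean and SD of 3 libraries per genotype. *Med12l* and *Med13l* in *Tet2*-KO lie above WT at each time, and *Cdk19* falls with labelling time in both genotypes while *Cdk8* rises.

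Of the 9 middle genes, 4 had a higher share (*Med21*, *Med31*, *Med10* and *Med26*), 3 a lower share (*Med1*, *Med4* and *Med7*), and *Med9* and *Med19* did not pass. Of all genes tested 24.6% were higher and 32.0% lower. *Med21*, which pairs with Med7 in the hinge of the middle module, lies on chromosome 6, from 146642547 to 146650732 (plus strand). It had 13.4, 12.4 and 12.2 (10 min), 11.6, 12.5 and 10.4 (20 min) and 11.7, 10.9 and 10.9 (40 min) RPM in WT. In *Tet2*-KO it had 21.7, 18.3 and 21.1 (10 min), 19.7, 18 and 21.4 (20 min) and 17.8, 20.4 and 20.2 (40 min). No library of either genotype overlapped with the other, and the log2 fold change was 0.76 (SE 0.058, adjusted p = 2.63e-13), near that of *Med12l*. Exons of *Med21* share 197 bases with *Tm7sf3*, which runs on the other strand. *Med31*, on chromosome 11, from 72211724 to 72215592, had 3.27, 4.18 and 4.33 (10 min), 3.36, 2.22 and 3.77 (20 min) and 4.12, 3.82 and 3.35 (40 min) RPM in WT and 4.76, 5.55 and 4.72 (10 min), 4.29, 3.99 and 3.85 (20 min) and 4.85, 4.40 and 5.30 (40 min) in *Tet2*-KO. These values rest on 42 to 107 reads per library, the fewest of any tested member. At each time the genotypes did not overlap, and the log2 fold change was 0.36 (SE 0.11, adjusted p = 0.00439).

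*Med10* and *Med26* were higher in *Tet2*-KO at short labelling, and the difference narrowed by 40 min. *Med10*, part of the hook of the middle module, had 18.8, 16.7 and 12.5 (10 min), 20.2, 18.9 and 15.7 (20 min) and 19.1, 18.1 and 25.1 (40 min) RPM in WT and 19.2, 26.7 and 26.5 (10 min), 21, 21.5 and 22.5 (20 min) and 21.7, 22.2 and 17.7 (40 min) in *Tet2*-KO. Its libraries were apart at 10 and 20 min and overlapped at 40 min (0.27, SE 0.077, adjusted p = 0.0028 on the mean of the times). *Med26*, the subunit that recruits elongation factors, had 152, 151 and 149 (10 min), 196, 199.8 and 197 (20 min) and 206, 207 and 210.0 (40 min) in WT and 177, 173 and 166 (10 min), 215, 210.4 and 211 (20 min) and 209, 209 and 204 (40 min) in *Tet2*-KO. It too was apart at 10 and 20 min and overlapped at 40 min (0.096, SE 0.016, adjusted p = 5.34e-06). On the lower side stood *Med1*, which binds nuclear receptors (-0.10, SE 0.019, adjusted p = 2.02e-05), *Med4* (-0.12, SE 0.051, adjusted p = 0.0384) and *Med7* (-0.12, SE 0.051, adjusted p = 0.0397). *Med19* had 0.066 and *Med9* -0.13, neither past the threshold.

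Head genes were lower or did not pass: of the 6 tested, *Med8*, *Med6* and *Med17* had a lower share and none a higher one. Over all genes tested 32.0% were lower and 24.6% higher, and *Med17* lost its call with TMM and with DESeq2. The summed share of the module was 166 to 173 RPM on average in WT and 144 to 157 in *Tet2*-KO. *Med8*, which holds the Med18 and Med20 pair to the rest of the head, lies on chromosome 4, from 118409337 to 118415782. It had 26.6, 29.6 and 29.2 (10 min), 24.1, 23.7 and 25.8 (20 min) and 25, 25.2 and 23.8 (40 min) RPM in WT. In *Tet2*-KO it had 17.5, 19 and 19.6 (10 min), 18.6, 19.6 and 19.2 (20 min) and 22.4, 19.2 and 19.6 (40 min). Every *Tet2*-KO library lay below every WT library, with a log2 fold change of -0.41 (SE 0.046, adjusted p = 1.93e-09), the lowest of the members. Per ERCC read *Med8* was higher in *Tet2*-KO, by 0.32 (SE 0.069, adjusted p = 6.42e-06). *Med6* (-0.14, SE 0.028, adjusted p = 5.79e-05) and *Med17*, the central subunit of the head (-0.11, SE 0.042, adjusted p = 0.0272), changed less. *Med11* (0.065), *Med18* (0.084) and *Med22* (-0.17) did not pass, with 60 to 240 reads per library.

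*Med20*, the partner of Med18, was at 0 reads in all 18 libraries and was not tested. Of its 12837 bases on chromosome 17 (from 47611582 to 47624418, plus strand), all but 7 are covered by *Gm20517*, a gene annotated as protein-coding on the same strand from 47611589 to 47683861, which had 537 to 981 reads per library. The other nested genes show how the files treat such overlap. Of the genes that lie in an intron of 1 protein-coding host, 3447 of 3450 on the host's strand were at 0 reads in all libraries (99.9%) and 853 of 2825 on the opposite strand (30.2%). Within the Mediator genes 12 of 12 such genes on the same strand were at 0, and 2 of 14 on the opposite strand. The 0 of *Med20* is thus a count that the overlap can set and no measure of its transcription. Whether reads of same-strand genes in the introns of other members were counted to those members or left out is not known. The settings of the counting are not given in the sources used here.

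**Figure D4:**
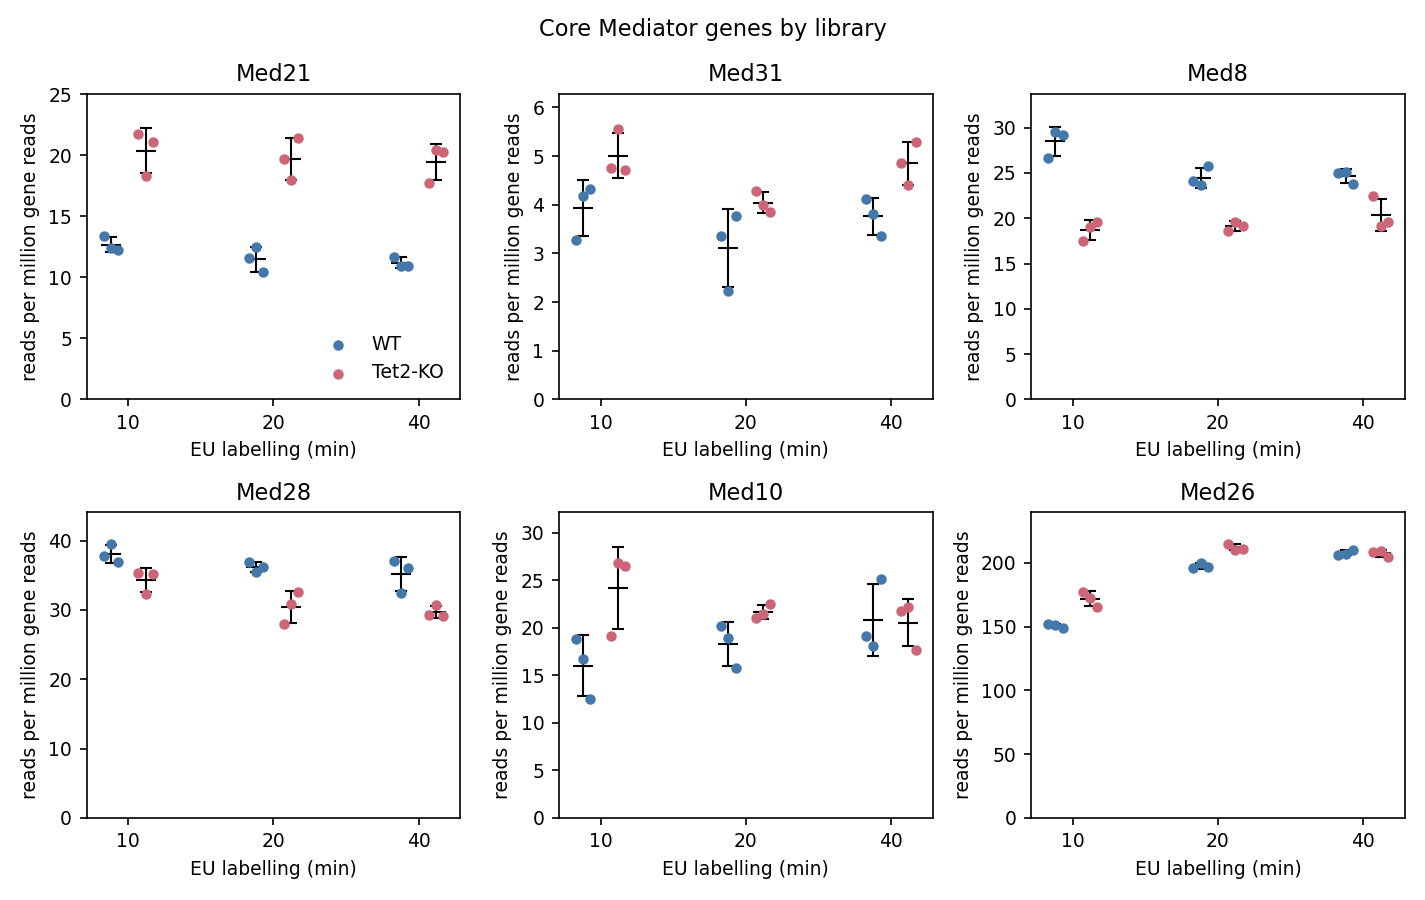
Level in RPM of 6 core Mediator genes against minutes of EU labelling. Points are libraries, and bars are the mean and SD of 3 libraries per genotype. *Med21* and *Med31* in *Tet2*-KO lie above WT and *Med8* and *Med28* below at each time, and *Med10* and *Med26* are apart at 10 min and overlap at 40 min.

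Where head and tail meet, *Med28* and *Med30* had a lower share, *Med27* a higher one, and *Med29* did not pass (0.097). By the same test 32.0% of all genes were lower and 24.6% higher. *Med28*, on chromosome 5, from 45520229 to 45529276, had 37.8, 39.5 and 36.9 (10 min), 36.8, 35.4 and 36.2 (20 min) and 37.1, 32.4 and 36.1 (40 min) RPM in WT. In *Tet2*-KO it had 35.4, 32.3 and 35.2 (10 min), 27.9, 30.8 and 32.5 (20 min) and 29.3, 30.7 and 29.2 (40 min). The groups did not overlap at any time, and the log2 fold change was -0.21 (SE 0.039, adjusted p = 1.77e-05). *Med30* had -0.16 (SE 0.053, adjusted p = 0.0122) and *Med27* 0.053 (SE 0.023, adjusted p = 0.0498), a call lost with the replicate block, with the share of nuclear protein-coding reads and without the filter on low counts. Of the 5 tail genes, which receive activators, *Med16* (-0.14, SE 0.052, adjusted p = 0.0223) and *Med24* (-0.11, SE 0.041, adjusted p = 0.0217) had a lower share. *Med15*, *Med23* and *Med25* had 0.020, -0.027 and -0.089 without passing. *Med14*, the backbone, stood at 0.033 and did not pass either. With TMM and with DESeq2, *Med30*, *Med16* and *Med24* lost their calls, and *Med14*, *Med15* and *Med29* were called higher.

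Thus 11 members (*Med6*, *Med8*, *Med17*, *Med1*, *Med4*, *Med7*, *Med16*, *Med24*, *Med28*, *Med30* and *Cdk19*) were called in opposite directions on the 2 scales, higher per ERCC read and lower as a share. Their log2 fold changes ran from 0.32 to 0.66 per ERCC read and from -0.41 to -0.070 as a share. Among all genes tested, 80.5% were higher per ERCC read and 32.0% lower as a share. How many of them were called both ways was not counted, so the 11 are not a trait of the Mediator genes. *Med4*, *Med7*, *Med16*, *Med17*, *Med24*, *Med30* and *Cdk19* lost their calls with TMM and with DESeq2. *Med7* lost its call when any 1 of 10 libraries was left out (WT 10 min replicates 1 and 2, 20 min replicate 1, 40 min replicates 1 and 3, and *Tet2*-KO 10 min replicate 1, 20 min replicates 1 and 3, 40 min replicates 1 and 2), with log2 fold changes of -0.13 to -0.10. *Med4* lost it without any 1 of 9 (WT 10 min replicate 2, 20 min replicates 1 and 2, 40 min replicate 3, and *Tet2*-KO 10 min replicate 1, 20 min replicates 1 and 3, 40 min replicates 1 and 3), with -0.12 to -0.087. *Med17* lost it without any 1 of 6 (WT 10 min replicate 3, 40 min replicate 1, and *Tet2*-KO 10 min replicate 3, 20 min replicate 2, 40 min replicates 1 and 2), with -0.10 to -0.078. *Med24* lost it without WT 20 min replicate 1, 40 min replicate 1 or 40 min replicate 3 (-0.099 to -0.095), and *Med16* without WT 10 min replicate 2 or *Tet2*-KO 20 min replicate 2 (-0.12 and -0.11). Without overlap at any labelling time, 4 members had a higher share (*Med21*, *Med31*, *Med12l* and *Med13l*) and 2 a lower one (*Med8* and *Med28*), against 11.8% and 13.9% of all genes tested.

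At single labelling times fewer members passed. Higher shares were called for 7 members after 10 min (17.9% of all genes), for 8 after 20 min (17.6%) and for 3 after 40 min (18.9%). Lower shares were called for 5 (27.1%), 4 (20.7%) and 2 (19.6%). *Med12l*, *Med21*, *Med13l* and *Med8* passed at each of them. *Med12l* had log2 fold changes of 1.02, 0.77 and 0.87, *Med21* of 0.69, 0.78 and 0.80, *Med13l* of 0.35, 0.15 and 0.19, and *Med8* of -0.61, -0.36 and -0.27. *Med28* passed at 20 min (-0.25) and 40 min (-0.24). *Med10* (0.59) and *Med9* (-0.31) were among the largest at 10 min, and *Med11* (0.48) and *Med16* (-0.34) at 20 min. Without *Tet2*-KO 10 min replicate 2, *Med9* no longer passed (-0.24, adjusted p = 0.0799 from edgeR) and the lower count at 10 min was 3. *Med11*, with 60 to 165 reads per library, lost its call without WT 20 min replicate 1 or 2 or any of the 3 *Tet2*-KO 20 min libraries, with 0.31 to 0.51.

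The genotype difference itself moved between 10 and 40 min for 4 members, all downwards, and for 0 members upwards (5.89% of all genes tested moved up and 3.36% down, by the interaction term in edgeR). In *Med10* the log2 difference changed by -0.60 (SE 0.19, adjusted p = 0.0379), from 0.59 at 10 min to -0.014 at 40 min. In *Med26* it changed by -0.19 (SE 0.040, adjusted p = 0.00158), from 0.19 to -0.0025. In *Med13l* it changed by -0.16 (SE 0.032, adjusted p = 0.0011), from 0.35 to 0.19, and in *Med13* by -0.14 (SE 0.042, adjusted p = 0.032), from 0.14 to -0.0017. *Med12l* missed the threshold (-0.16, SE 0.055, adjusted p = 0.0679), as did *Med8* on the other side (0.34, SE 0.11, adjusted p = 0.0535). The call of *Med10* was lost without WT 10 min replicate 3, WT 40 min replicate 3, *Tet2*-KO 10 min replicate 2 or 3, or *Tet2*-KO 40 min replicate 3 (-0.53 to -0.44). That of *Med13* was lost without WT 10 min replicate 1 or 2, any WT 40 min library, *Tet2*-KO 10 min replicate 3, or *Tet2*-KO 40 min replicate 1 or 2 (-0.14 to -0.11). Without WT 40 min replicate 3 the count was therefore 2, and without WT 10 min replicate 1 *Med8* passed upwards. With TMM 6 members moved down (6.12% of all genes) and with DESeq2 5 (6.33%). The feeder fibroblast markers changed over the same interval in the opposite direction, 4 of the 4 tested upwards with a median of 2.6 on the log2 scale, and their part in the Mediator values was not tested.

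Labelling time shifted the make-up of the captured Mediator RNA on the mean of both genotypes, and neither genotype was tested alone. From 10 to 40 min, on the mean of both, 10 members gained share (19.9% of all genes tested) and 8 lost share (32.6%), with a median log2 change of 0.026 against -0.10 for all genes. *Med18* gained most (0.70, SE 0.14, adjusted p = 5.53e-05), from 3.68 to 7.07 RPM across the 6 libraries at 10 min to 7.93 to 11.7 at 40 min. *Med26* (0.37, SE 0.020, adjusted p = 1.08e-16), *Med25*, the activator-binding tail subunit (0.36, SE 0.066, adjusted p = 2.35e-05), and *Med7* (0.30, SE 0.063, adjusted p = 0.000153) followed. *Med23* (0.29), *Med17* (0.26), *Cdk8* (0.24), *Med13* (0.17), *Med14* (0.15) and *Med15* (0.14) also gained. *Cdk19* (-0.36, SE 0.022, adjusted p = 1.61e-15) and *Med16* (-0.34, SE 0.064, adjusted p = 3.76e-05) lost most, and *Med9*, *Med30*, *Med13l*, *Med28*, *Med12l* and *Med6* fell by 0.24 to 0.082 on the log2 scale. With TMM the counts were 14 and 6 (26.0% of all genes in each direction) and with DESeq2 12 and 6 (25.1% and 25.9%). *Med6* and *Med28* lost their calls in both, and *Med6* also without the filter on low counts. From 10 to 40 min *Med6* went from 85.6 to 76.5 RPM in WT and from 71.9 to 71.7 in *Tet2*-KO (means of 3 libraries). Across the 32 members the change had a Spearman's rho of -0.099 with the length of the gene span, and across 15158 protein-coding genes -0.13. These points share all libraries, and rho is a description only.

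**Figure D5:**
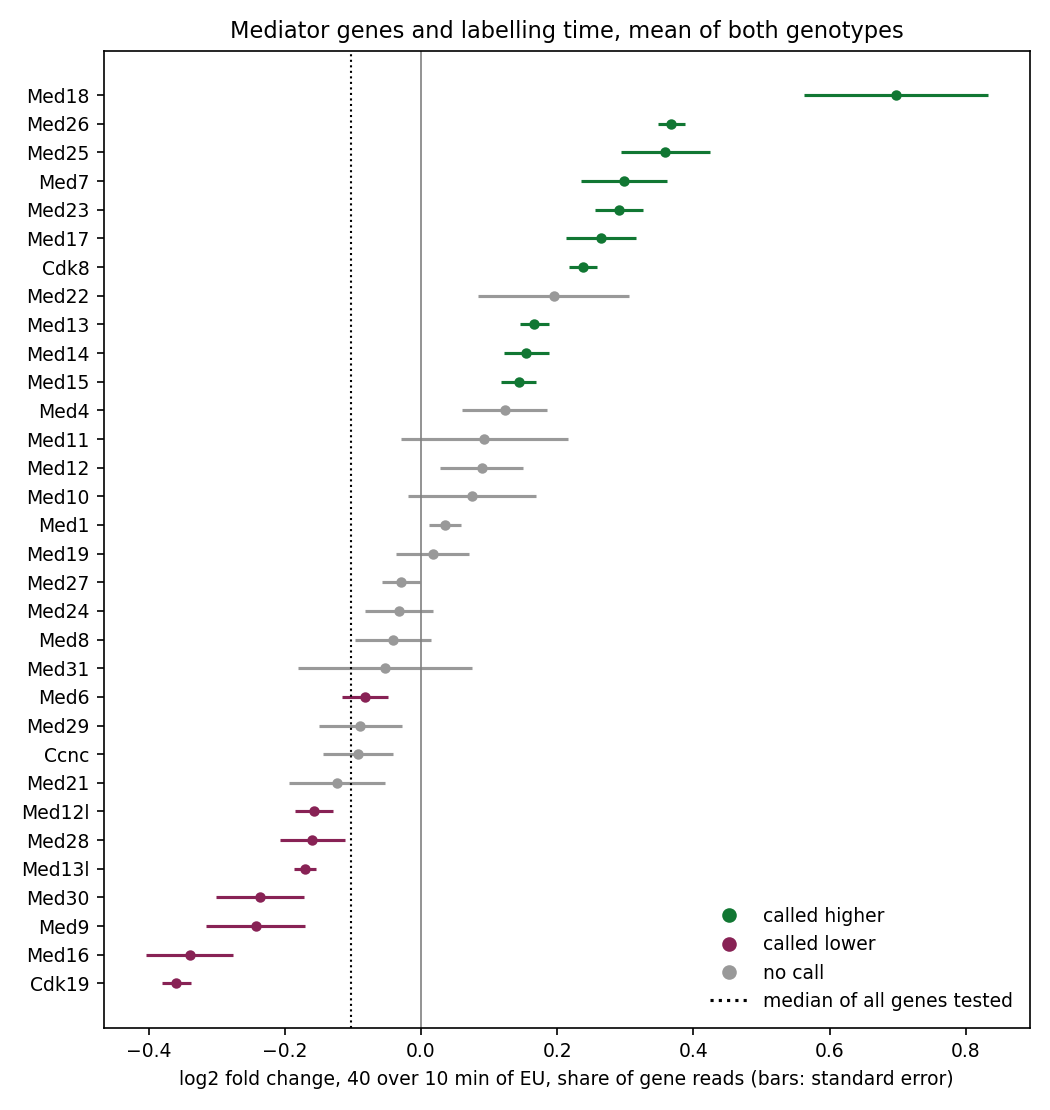
Log2 fold change in share of gene reads, 40 over 10 min of EU, mean of both genotypes, for the 32 tested Mediator genes, with bars for the standard error. Green and purple mark genes that passed the test upwards and downwards, and the dotted line is the median of all genes tested, -0.10. *Med18* (0.70) lies farthest right and *Cdk19* (-0.36) farthest left.

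The slope of the level per 1000 ERCC reads on labelling time, a measure of transcription rate on the spike-in scale, was larger in *Tet2*-KO for all 32 members with reads and for 86.8% of all genes tested. The median ratio was 1.5 for the members and 1.55 for all genes, and the members had ratios of 1.22 (*Med22*) to 2.77 (*Med12l*). *Med12l* had a slope of 0.482 ± 0.063 reads per 1000 ERCC reads per min in WT (standard error, 9 libraries) and 1.34 ± 0.096 in *Tet2*-KO. *Med13l* had 2.84 ± 0.332 and 4.87 ± 0.264, the steepest slopes of the set. *Med21* had 0.0696 ± 0.0068 and 0.191 ± 0.0085, a ratio of 2.74. *Med31* followed with a ratio of 2.0 and *Med19* with 1.74, and *Med28* (1.28) and *Med18* (1.27) stood at the low end with *Med22*. No test was made on the slopes.

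Per kb of exon, as a share, *Med26* was the highest member on the mean of all times in both genotypes, with 61.9 ± 8.80 RPM per kb in WT (SD over 9 libraries at 3 times) and 65.8 ± 6.47 in *Tet2*-KO. *Med6* (55.8 ± 3.31 and 50.6 ± 2.31) and *Cdk19* (41.4 ± 4.59 and 39.5 ± 4.84) came next, and the spread of the first 2 overlapped in WT. At 10 min in WT their order was the other way, with 59.1 ± 1.19 for *Med6* and 50.3 ± 0.451 for *Med26* (SD, n = 3). *Med22* was the lowest of the members with reads (1.76 ± 0.373 and 1.55 ± 0.159). *Med12l* had 6.54 ± 0.462 in WT, rank 22 of 33, and 12.1 ± 0.931 in *Tet2*-KO, rank 13. Per kb of gene span, a scale added after the data were seen, *Med4* came first (5.64 ± 0.683 and 5.16 ± 0.415), *Med1* came second (4.50 ± 0.129 and 4.19 ± 0.160), and *Med12l*, with the longest span of 312858 bases, was the lowest of the members with reads (0.267 ± 0.019 and 0.493 ± 0.038). On that scale *Med26* ranked 6 in WT and 3 in *Tet2*-KO, and *Cdk19* ranked 17 and 20, so the order depends on the length used. The counting settings are not given. In the introns of protein-coding hosts, 3447 of 3450 genes on the host's strand were at 0 reads, a pattern that counting over whole gene spans gives. Under such counting the exon scale favours genes with long introns, and *Med26* has 2997 exon bases in a span of 53710.

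Short motifs were searched on both strands of the 28 members' promoters, counting a member when any window held the letters. GGGCGG, the GC box, stood in 19 of 28 members and in 35.7% of all windows. CCGGAAG, an ETS motif, stood in 8 (8.86%), CCAAT in 11 (37.4%) and TATAAA in 3 (13.6%), these being *Med7*, *Med16* and *Med28*. The palindromic NRF1 motif was in 0 of 28 members and 0.971% of all windows. Of the printed genes, *Med12l*, *Med13l* and *Med21* held the GC box, and *Med21* and *Med28* held CCAAT. The counts and percentages are not like for like. Some members had more than 1 window, and the members' windows held a median of 20 CpG sites against 7 over all windows. A match is a description of letters and not of a bound factor.

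The general transcription factors, which assemble with Mediator at promoters, had 30 of 31 genes tested, *Taf9* being at 0 reads in every library. Of these, 7 had a higher share in *Tet2*-KO (24.6% of all genes tested), 14 a lower share (32.0%) and 9 did not pass (median -0.075). *Gtf2h2*, a core subunit of TFIIH, fell furthest (-1.42, SE 0.020, adjusted p = 8.66e-34), from 214 to 229 RPM in WT to 77.5 to 89.1 in *Tet2*-KO. *Cdk7*, the TFIIH kinase (-0.50, SE 0.023, adjusted p = 4.74e-19), and *Gtf2h4*, another TFIIH subunit (-0.44, SE 0.086, adjusted p = 5.68e-05), came next. *Gtf2h2* and *Cdk7* lie near each other on chromosome 13, from 100460218 to 100492579 and from 100702631 to 100730939. The ranges overlapped between genotypes for *Gtf2h4* (6.341 to 8.535 RPM in WT and 4.44 to 6.63 in *Tet2*-KO) and for the other TFIIH genes of the list. *Mnat1* had 194 to 229 RPM in WT and 218 to 244 in *Tet2*-KO, and *Ercc3* had 54.57 to 66.65 and 45.45 to 57.91. A shared cause was not tested. Per ERCC read 29 of the 30 were higher (80.5% of all genes tested), and *Gtf2h2* was lower (4.15%). Of the 7 genes of cohesin and its loader, 5 had a higher share (24.6% of all genes tested), 1 a lower one (32.0%) and 1 did not pass (median 0.13). Among them were *Stag1* (0.27, SE 0.013, adjusted p = 1.46e-18), *Smc1a* (-0.25, SE 0.015, adjusted p = 9.55e-16) and the loader subunit *Mau2* (0.16, SE 0.027, adjusted p = 7.33e-06). All 7 were higher per ERCC read, as were 80.5% of all genes tested. No comparison between these lists and the Mediator genes was tested.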

How the data were processed

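Nascent RNA of 18 libraries was sequenced by the authors, who trimmed reads with Trimmomatic 0.39, aligned them with HISAT2 2.2.1 to mm10 with GENCODE M19 annotation and ERCC sequences, and counted them per gene with HTSeq 0.12.4. The deposited values are whole-number read counts without normalization. The strand, feature and overlap settings are not given in the sources used here. Lines that name no gene (no feature, 13.2% to 16.9% of the total, ambiguous, 2.32% to 2.50%, and not unique, 5.24% to 5.99%) were left out. GENCODE M21 held 54409 of the 54446 gene identifiers and supplied their names, positions and exons.

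Genes were kept by filterByExpr (minimum count 10), which left 19910, and fitted in R 4.3.3 with the quasi-likelihood test of edgeR 4.0.16, one group per genotype and labelling time. Library sizes were the ERCC totals (per ERCC read) or the gene totals (share), with normalization factors of 1. Contrasts were *Tet2*-KO against WT on the mean of the 3 labelling times and at each time, the change of that difference from 10 to 40 min, and 40 against 10 min. The threshold was a Benjamini-Hochberg adjusted p of 0.05, and a standard error is the size of the log2 fold change over the root of F. Reads are not independent molecules, so depth limits precision only through counting error: tested members had 42 to 14180 reads per library. Replicates of a group differed by more than counting noise (chi-square per gene, on average, 1.64 to 5.34), and each counted as its own sample. The procedures were tested on simulated data. Alternatives were TMM, DESeq2 1.42.0, a spike-in scale from only those 18 ERCC transcripts that reached 100 reads in all libraries, the share of nuclear protein-coding reads, other filters, a replicate block and each library left out.

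The members and lists were chosen with earlier results of these data known. The text gives values for the kinase module, the up to 6 largest called changes on the share scale in each comparison, members called in opposite directions on the 2 scales, members whose genotype difference changed with time and members that failed the filter, and up to 3 genes of each other list. Promoter sequences are from RefSeq (GRCm38.p6), which shares its coordinates with mm10.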

Additional observations from a re-analysis of the deposited data

Results flagged for a closer look

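The difference between *Tet2*-KO and WT in share of gene reads was not the same at 10 and 40 min of EU for 4 members. By the test of the interaction, the log2 difference changed by -0.600 for *Med10* (adjusted p = 0.0379), by -0.191 for *Med26* (adjusted p = 0.00158), by -0.140 for *Med13* (adjusted p = 0.032) and by -0.157 for *Med13l* (adjusted p = 0.0011), all from edgeR's quasi-likelihood test. In *Med26* and *Med13l* this held in each of the 18 fits without 1 library (adjusted p up to 0.00783 and 0.00614, edgeR), in *Med10* and *Med13* it did not. With TMM 6 members changed downwards, *Med27* and *Med12l* being the additional ones, and with DESeq2 5. *Med10* was not among the 5, at -0.674 and an adjusted p of 0.0792 from DESeq2.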

How the results depend on the processing

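The scale decided the direction of many members. On the mean of the labelling times, TMM in place of the ERCC scale gave 14 members higher and 4 lower, where the ERCC scale gave 32 and 0, and *Cdk19* went to -0.0299 (adjusted p = 0.161, edgeR). In place of gene totals, TMM gave 14 higher and 4 lower and DESeq2 4 lower, where 9 and 11 were called. Both centre all genes near 0, and TMM moved the median of all genes from -0.037 to 0.00273. *Ccnc*, never past the threshold as a share, went from -0.018 to 0.0223 with TMM, to 0.0175 with DESeq2 and over -0.0476 to 0.0103 in the 18 fits without 1 library (above 0 also at 0.00869). At 10 min DESeq2 called 3 members lower (20.6% of all genes), where edgeR called 5, and leaving out 1 library gave 3 to 6. For the change from 10 to 40 min, *Med8* was 1 member called upwards with the share of nuclear protein-coding reads and with at least 10 reads in every library, where 0 were called, and leaving out 1 library gave 0 to 1 upwards and 2 to 4 downwards. The causes were not tested. Of the values for single members under all alternatives, 1220 kept their direction and side of the threshold, 67 lost and 4 gained a call, and 5 changed sign.

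The labels do not tie replicate numbers to a day or batch. Libraries of the same number in different groups had deviations with a median correlation of -0.00469 (-0.0661 to 0.049, 45 pairs), so no deviation common to a number was seen. With the replicate block 8 members were higher and 11 lower as a share, where 9 and 11 were called.

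With 42 to 240 reads per library, *Med31*, *Med11*, *Med22* and *Med18* had standard errors of 0.092 to 0.11 on the log2 scale, so differences of that size could not be detected for them. *Med20* could not be measured.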

Other observations

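*Med21* was one of several genes in a row with a higher share in *Tet2*-KO, a pattern examined after its value was seen. The nearest tested protein-coding genes are *Tm7sf3*, on chromosome 6 from 146602352 to 146642824 (log2 fold change 0.67, SE 0.022, adjusted p = 1.66e-23 from edgeR), and *Stk38l*, from 146724995 to 146778812 (0.62, SE 0.028, adjusted p = 3.44e-19 from edgeR), with *Arntl2* after it, from 146796055 to 146833529 (0.67, SE 0.087, adjusted p = 5.49e-08 from edgeR). The genes on either side did not share this size: *Fgfr1op2*, before them, had -0.078 and *Smco2*, after them, -2.78. Within 1 Mb before *Med21*, 2 of 5 tested protein-coding genes were higher and 2 lower, and within 1 Mb after it 3 of 9 were higher and 4 lower.

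Around *Med12l*, *P2ry12* (1.17, adjusted p = 0.0382 from edgeR), which lies inside it on the other strand, and *Clrn1* before it (1.58, adjusted p = 2.92e-05 from edgeR) were also higher in *Tet2*-KO, on 0 to 27 reads per library. *Siah2* before it had 0.30 (adjusted p = 0.000423 from edgeR) and *Igsf10* after it -0.34 (adjusted p = 0.0648 from edgeR). Next to *Med8* only 1 of 4 neighbours was called, *Ptprf* (0.20, adjusted p = 4.15e-10 from edgeR), in the opposite direction.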
